A study of Mus musculus with 4 samples.

Results

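Havcr1, the gene of kidney injury molecule 1 (Kim-1), was followed as 1 gene of the 32285 measured. It was chosen by its symbol in the gene list of the files, where it has the identifier ENSMUSG00000040405, and that rule uses no measured value. Kim-1 is a membrane glycoprotein of the T cell immunoglobulin and mucin (TIM) family. It binds phosphatidylserine on dying cells, its outer part is shed by metalloproteases into urine, and it is best known as a marker of injured proximal tubule epithelium, which uses it to engulf debris. The healthy proximal tubule holds little of it, and TIM family members are also found on immune cells.

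The study placed kidney sections on Visium slides, whose arrayed spots capture RNA under a spatial barcode, and each molecule was counted once through its unique molecular identifier (UMI). The 4 sections used here were 10 µm cuts of the left kidney of male WT C57BL/6J mice aged 7 to 8 weeks, 2 labelled as normal controls and 2 as ischemic reperfusion injury, taken 24 h after 30 min of clamping both renal pedicles. Each section lay on its own capture area, so condition and capture area cannot be told apart. The paper describes technical repeats of each mouse and the labels do not tie a section to a mouse, so p-values measure only the spread between sections. A spot is a small region that can hold several cells, and spots were never treated as replicates. Depth was 25957128 to 44528078 UMIs per section over 2401 to 2682 tissue spots, with median depths of 8656 to 16162 UMIs per spot. The sections shared 1490 array positions under tissue in all 4 and 1833 to 2137 in pairs, since every area carries the same array.

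On GRCm38, Havcr1 lies on the plus strand at chr11:46735080-46779578. Its nearest relative, Timd2, a TIM receptor described as binding H-ferritin, lies on the minus strand at chr11:46668960-46707061, so that the genes stand head to head with 28018 bases between them. Timd4, a phosphatidylserine receptor of macrophages, follows Havcr1 after 31221 bases, and Havcr2, an inhibitory receptor of T cells, lies at chr11:46454935-46481255. Whether reads of these relatives can be told apart matters for every value that follows. Among the 2306 distinct windows of 50 bases in the 4 annotated Havcr1 transcripts, 77 occurred letter for letter in a Timd2 transcript, and none occurred in Havcr2 or Timd4. The longest run shared with Timd2 was 115 bases, but in the last 1000 bases of the 3 long Havcr1 transcripts, where a 3′ assay draws most of its reads, it was 31 bases. The fourth transcript, of 565 bases, goes the other way: it shares windows of 50 bases with Timd2 up to its 3′ end and with Gm4926 between 82 and 4 bases from that end. Gm4926 was the only other annotated gene with a shared window of 50 bases.

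The longest shared run in coding sequence was 53 bases, in the exons of the threonine-rich mucin stalk. Both copies are shown 5′ to 3′ on the coding strand from GRCm38.p6, because a read lying wholly inside the run would match both genes, and how such reads were counted was not tested. Capitals mark the identical run and lower case the flanking bases of the same exon. The Havcr1 copy lies at chr11:46756179-46756261 on the plus strand, in a coding exon of 159 bases, and the Timd2 copy at chr11:46682673-46682755 on the minus strand, in a coding exon of 144 bases.
Havcr1: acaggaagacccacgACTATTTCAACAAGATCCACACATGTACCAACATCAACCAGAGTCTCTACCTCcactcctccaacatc
Timd2: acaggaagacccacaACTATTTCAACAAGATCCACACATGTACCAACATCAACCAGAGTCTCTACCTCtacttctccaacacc

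Havcr1 rose from near absence to an abundant transcript. Normal section 1 held 43 Havcr1 UMIs and normal section 2 held 59, whereas ischemic section 1 held 43731 and ischemic section 2 held 36668. Per 1000000 UMIs of the section (CPM), the level was 0.966 in normal section 1, 2.13 in normal section 2, 1408 in ischemic section 1 and 1413 in ischemic section 2. The groups did not overlap, and the ischemic sections lay close together while the normal sections differed from each other. After scaling by edgeR's TMM factors the means were 1.65 ± 0.69 CPM in normal and 1284 ± 5.55 CPM in ischemic sections (SD, n = 2 each). The log2 fold change was 9.64 with a standard error of 0.28 (edgeR quasi-likelihood test, Benjamini-Hochberg adjusted p = 6.70e-08). The ratio of pooled counts per UMI was 998, with a 95% counting interval of 822 to 1224 from 102 and 80399 UMIs. Of the 15305 genes tested, 60.6% passed an adjusted p of 0.05, 31.0% higher and 29.7% lower in ischemic sections, so a call alone is nothing particular to Havcr1. The mitochondrial share of UMIs also moved with the condition, from 5.21 and 4.91% in normal to 3.36 and 3.99% in ischemic sections. With mitochondrial genes removed the log2 fold change of Havcr1 was again 9.64, and what else moved with this share was not tested. Sums over a section cannot tell fewer cells of a type from less RNA per cell.

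Most ischemic spots held the transcript. A Havcr1 UMI was found in 1.57% of spots in normal section 1 (41 of 2616, 95% Clopper-Pearson interval 1.13 to 2.12%) and in 1.64% in normal section 2 (44 of 2682, 1.19 to 2.20%). It was found in 87.9% of spots in ischemic section 1 (2110 of 2401, 86.5 to 89.2%) and in 82.6% in ischemic section 2 (2159 of 2613, 81.1 to 84.1%). These intervals cover counting error only. With each spot thinned to 2000 UMIs the expected share was 0.178 and 0.368% for normal and 68.6 and 65.7% for ischemic tissue, after leaving out 48 and 150 normal and 58 and 105 ischemic spots that were shallower. Depth therefore moved the shares but not the separation of the groups.

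Single spots ranged widely. The highest normal spots held 2 UMIs in section 1 and 7 UMIs in section 2, and 39 of the positive spots in each normal section held exactly 1. In the ischemic sections the highest spots held 152 and 125 UMIs, with medians of 10 and 5 UMIs over all spots. The top 10% of ischemic spots by CPM held 33.5 and 35.0% of all Havcr1 UMIs but 14.0% of all UMIs in both sections. Neighbouring spots resembled each other: across spots, log2(CPM + 10) correlated with the mean of the adjacent spots at r = 0.783 over ischemic section 1 and r = 0.739 over ischemic section 2, on 2401 and 2613 spots that share a library. The correlation with the spot's log2 depth was 0.391 and 0.313. The part that spread of RNA between neighbouring spots has in this likeness was not tested.

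**Figure D1:**
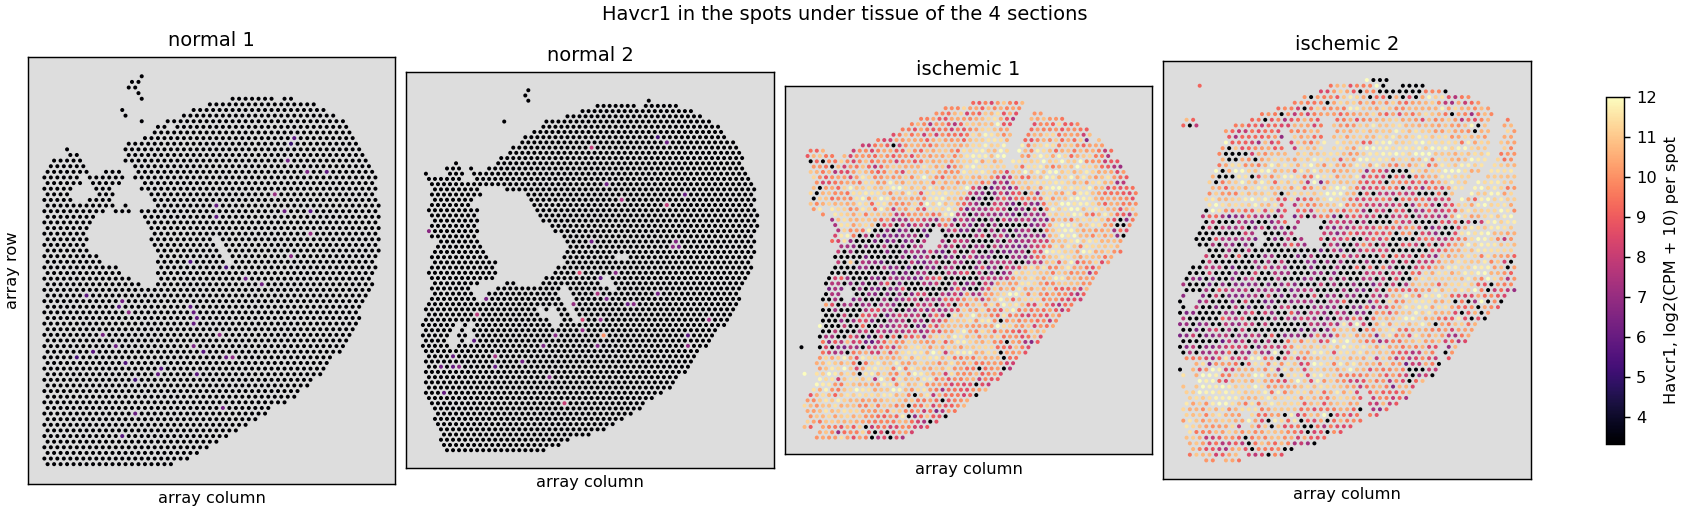
Maps of Havcr1 in the 4 sections, 1 dot per tissue spot, placed by array column and row and coloured by log2(CPM + 10), where black is 0 counts. The normal sections show scattered single positive spots (1.57 and 1.64% of spots), while the ischemic sections show a broad bright band around a dark interior and are positive in 87.9 and 82.6% of spots.

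To place the transcript in the kidney, each spot was given a zone from marker genes of the spot and its neighbours. The zones were cortex, outer stripe and inner stripe of the outer medulla, inner medulla and pelvis. The cortex list held transporters of the convoluted proximal tubule and Slc12a3 of the distal convoluted tubule, the outer stripe list genes of the straight proximal tubule, the inner stripe list genes of the thick ascending limb, the inner medulla list collecting duct and osmolyte genes, and the pelvis list urothelial genes. In the ischemic sections 6 of 6 cortex, 4 of 4 inner stripe and 6 of 6 pelvis markers were highest in their own zone, as were 4 of 5 outer stripe markers. The zones were drawn from these same markers, so this is nearly fixed in advance and is no check of the labels. The inner medulla list went against its label, with 2 of 5 markers highest there: Cryab, a small heat shock protein, was highest in the outer stripe of both ischemic sections, at 5847 and 5862 CPM against 2261 and 1704 CPM in the inner medulla, and Akr1b3 and Aqp2 were highest in the pelvis. The ischemic zones named inner medulla and pelvis are therefore zones of their marker scores more than of anatomy. In normal section 1 the inner medulla list also had 2 of 5 markers highest in its zone, against 5 of 5 in normal section 2. Only 28.3 and 28.5% of ischemic pelvis spots kept that zone when neighbours were left out.

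The outer stripe carried the highest Havcr1 level in both ischemic sections. Its level, in CPM of the zone's own UMIs, was 2346 in ischemic section 1 and 2445 in ischemic section 2. Cortex followed with 1254 and 1326 CPM, and pelvis with 1091 and 817 CPM. Inner medulla held 445 and 312 CPM, and inner stripe 340 and 315 CPM. The outer stripe and cortex values of the sections differed by less than the distance between the zones, whereas inner medulla and inner stripe lay within the spread of each other. The outer stripe covered 25.9 and 26.1% of spots and held 54.8 and 57.9% of the Havcr1 UMIs, and cortex held 36.0 and 33.6%. In the outer stripe 99.4 and 98.4% of spots had a Havcr1 UMI, compared with 97.2 and 91.5% in cortex and 71.8 and 60.5% in the inner stripe. After thinning to 2000 UMIs these shares were 94.8 and 93.0%, 82.5 and 81.0%, and 30.7 and 29.7%.

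Within a zone the spots were uneven. In the outer stripe of ischemic section 1 the 10th, 50th and 90th percentiles of spot CPM were 832, 2223 and 3535, and in ischemic section 2 they were 635, 2269 and 3668. In cortex the same percentiles were 319, 1031 and 2250 in ischemic section 1 and 162, 1038 and 2418 in ischemic section 2. The median inner stripe spot lay at 127 and 118 CPM, and the 90th percentile there reached 715 and 643 CPM, below the median of the cortex. In pelvis the median spot lay at 203 and 200 CPM but the 90th percentile at 2452 and 2159 CPM, so that the typical pelvis spot lay far under the level of the zone as a whole.

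Levels between zones were tested on the zone sums with the section as a block, for all 10 pairs of zones, with adjustment over all 14174 genes. Ordered by TMM-scaled CPM in the ischemic sections, the zones were outer stripe (2521 ± 73.9), cortex (1383 ± 54.6), pelvis (805 ± 186), inner medulla (313 ± 77.7) and inner stripe (271 ± 11.7; all SD, n = 2). Cortex lay below the outer stripe by a log2 difference of -0.87 ± 0.14 (SE; edgeR quasi-likelihood test, adjusted p = 5.52e-05), in a contrast in which 36.2% of genes passed. Cortex exceeded pelvis by 0.80 ± 0.14 (adjusted p = 0.000147, 36.6% of genes passed). Inner medulla lay below pelvis by -1.36 ± 0.15 (adjusted p = 6.30e-06, 3.50% passed). Inner stripe and inner medulla were not told apart, with a difference of -0.19 ± 0.14 (adjusted p = 0.923, 0.0847% passed).

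The order of the lower zones rested on how zones were drawn. With markers of the spot alone, inner medulla exceeded pelvis by 0.35 (adjusted p = 0.216) and cortex exceeded pelvis by 1.66, and without ischemic section 2 the difference of cortex and pelvis was 0.53 (adjusted p = 0.122). The outer stripe stayed above cortex in each alternative that kept an outer stripe. With 3 coarser zones from podocyte, renin, distal tubule, thick limb, collecting duct, urea transporter and osmolyte genes, the outer medulla lay below cortex. Cortex exceeded it by 0.65 on the log2 scale (adjusted p = 0.000497). This drawing set pelvis apart and also pooled the neighbours of neighbours, and the part of the wider pooling was not tested. That coarser outer medulla pooled both stripes. Of the ischemic outer stripe spots, 206 of 621 and 246 of 681 fell in it, 200 and 276 in the coarse cortex and 203 and 152 in the coarse inner medulla. In normal sections 619 of 803 and 601 of 820 outer stripe spots fell in the coarse outer medulla. The ischemic outer stripe is thus also a zone of its marker scores. In the ischemic sections the coarse zones stood at 1520 and 1688 CPM in cortex and 1249 and 1182 CPM in outer medulla. The coarse inner medulla held 1375 and 1202 CPM, so the low inner medulla of the main zones was not seen with this drawing. In each of these 3 coarse zones the spots of the outer stripe kept high levels, 2434, 2352 and 2243 CPM in ischemic section 1 and 2606, 2184 and 2553 CPM in ischemic section 2.

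**Figure D2:**
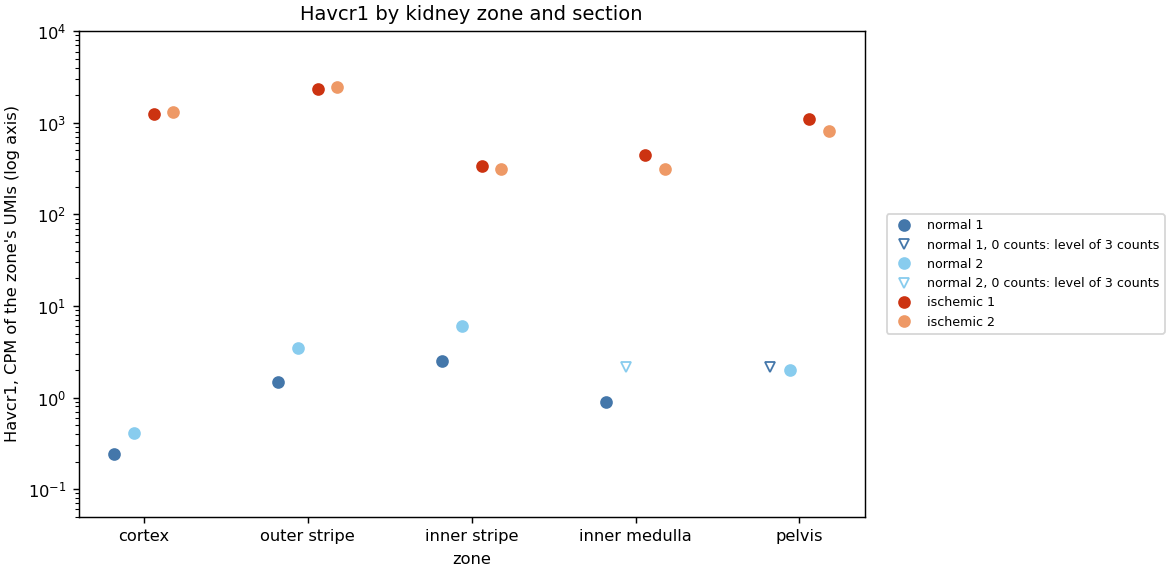
Havcr1 by zone, as CPM of the zone's UMIs on a log axis, with 1 point per section. Open triangles stand at the level of 3 counts for the 2 normal zone sums with 0 counts. The ischemic sections lie between 312 and 2445 CPM in all zones with the outer stripe at the top, and the normal sections at or under 6.11 CPM with cortex at the bottom.

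The zone with the highest ischemic level was not the zone with the most RNA of the listed markers of the whole proximal tubule. Summed markers of the whole proximal tubule stood at 4837 and 5037 CPM in ischemic cortex and at 1844 and 1911 CPM in the ischemic outer stripe. Per 1000 UMIs of these markers, cortex held 259 and 263 Havcr1 UMIs and the outer stripe held 1272 and 1279. Inner stripe held 788 and 809, inner medulla 996 and 935, and pelvis 1513 and 1112, so cortex stood below the other 4 zones and the outer stripe was not the highest in ischemic section 1. In the same sections 8 of 8 of these markers fell with ischemia, beside 29.7% of all genes, with a median log2 fold change of -2.04, while the median over all genes was 0.04. The convoluted tubule list fell in 8 of 8 and the straight tubule list in 6 of 7 members, beside the same 29.7%, with medians of -2.42 and -3.25. Loss of these transcripts moved with the rise of Havcr1, and its part in the ratio was not tested. The order of the zones also depends on the markers chosen. Kap, a proximal tubule gene outside these lists, was higher in the ischemic outer stripe, at 36974 and 36106 TMM-scaled CPM. In ischemic cortex it stood at 24197 and 24171.

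Along the axis from the surface inward the ischemic sections showed the same band. At the tissue edge the level was 1034 CPM in ischemic section 1 and 1267 CPM in ischemic section 2. It reached 1867 CPM at 9 spots from the edge in section 1 and 1753 CPM at 8 spots in section 2. At 14 spots from the edge it was 635 and 267 CPM, on 21 and 29 spots. The distance counts steps to any position without tissue, so holes and the hilum count as edges.

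**Figure D3:**
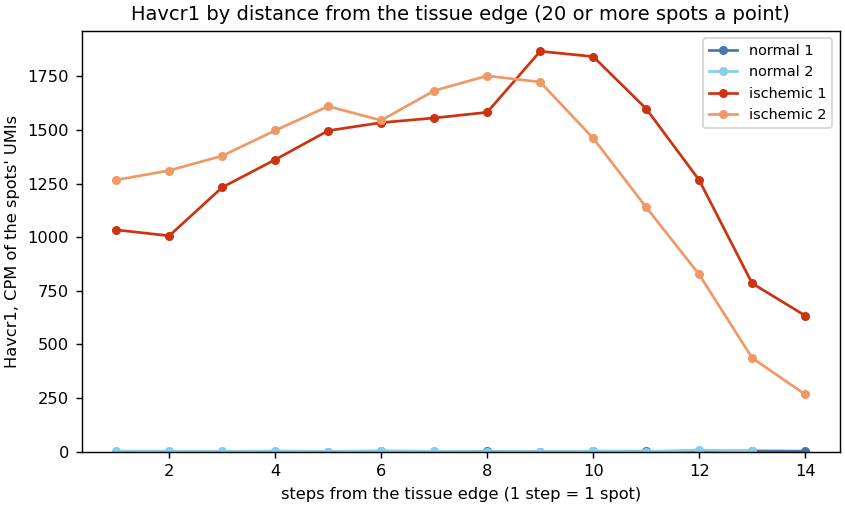
Havcr1 CPM by the number of spot steps from the nearest position without tissue, 1 line per section and 20 or more spots a point. The ischemic lines climb from 1034 and 1267 CPM at the edge to 1867 and 1753 CPM at 9 and 8 steps and fall to 635 and 267 CPM at 14 steps, while the normal lines lie along the axis.

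Havcr1 was higher in the ischemic sections in every zone, though from very different starting levels. The normal cortex held 5 UMIs in each section. The normal outer stripe held 23 and 35 UMIs, and the normal inner stripe 14 and 16. Inner medulla held 1 and 0 UMIs and pelvis 0 and 3, which are at or under the level of 3 counts. Among the normal zones with more than 3 counts the inner stripe was highest, at 2.48 and 6.11 CPM, and cortex lowest, at 0.240 and 0.411 CPM. The single spot with most Havcr1 in the normal sections, with 7 UMIs, was an inner stripe spot of normal section 2, and the next, with 6 UMIs, was an outer stripe spot of the same section with 62062 UMIs in all. That 1 inner stripe spot held 7 of the 16 UMIs of its zone. The order of the normal zones also turned with the drawing: with markers of the spot alone the outer stripe, at 1.68 and 3.64 CPM, lay above the inner stripe, at 1.3 and 3.45 CPM.

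The zone tests between conditions passed in each zone. The log2 fold change was 11.79 ± 0.22 in cortex (SE; edgeR quasi-likelihood test, adjusted p = 2.60e-13, where 49.8% of genes passed), 9.64 ± 0.23 in the outer stripe (adjusted p = 5.85e-19, 67.4% passed) and 6.08 ± 0.29 in the inner stripe (adjusted p = 4.47e-06, 43.2% passed). As ratios of pooled counts per UMI with counting intervals, these were 4236 (2303 to 8834) in cortex, 1053 (814 to 1387) in the outer stripe and 90.2 (63.0 to 134) in the inner stripe. In inner medulla the adjusted p was 6.58e-05 with 27.4% of genes passing, and 1 UMI in normal against 1901 in ischemic sections gave a ratio of 970 with an interval of 174 to 38339. In pelvis it was 6.98e-08 with 25.3% passing, and 3 against 2381 UMIs gave 913 with an interval of 312 to 4429. The interval of the inner stripe lay below those of the other zones. This too rested on the drawing of zones: with markers of the spot alone the log2 fold change of the inner stripe was 7.93 in place of 6.08, beside 7.85 in inner medulla, and the inner stripe was no longer the lowest.

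The excess of the outer stripe over cortex was smaller after ischemia than before. On the log2 scale it was 2.96 ± 0.46 in normal sections and 0.87 ± 0.14 in ischemic sections (SE), and the difference of -2.09 ± 0.50 passed the interaction test (edgeR quasi-likelihood test, adjusted p = 0.00347), as did 21.5% of genes. The normal side of this contrast rests on 10 cortical UMIs. As the spread of outer stripe spots over the coarse zones differed between conditions, the outer stripe may not be the same region in both. Without normal section 2 the difference was -1.85 and the adjusted p 0.121.

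Lcn2, which encodes the secreted iron carrier NGAL and is the other widely used tubular injury marker, took a different route through the kidney. It rose from 219 and 220 UMIs in the normal sections to 94901 and 94111 UMIs in the ischemic sections, a log2 fold change of 8.78 ± 0.27 (SE; edgeR quasi-likelihood test, adjusted p = 6.90e-08). Its ischemic level was highest in inner medulla, at 9833 and 10900 CPM, followed by inner stripe, at 7597 and 8645 CPM. It was 1854 and 1719 CPM in the outer stripe and 738 and 622 CPM in cortex. Across spots its log2(CPM + 10) correlated with that of Havcr1 at -0.501 and -0.420, and within zones at -0.176 and -0.107. The sign differed between zones, with 0.089 and 0.174 in cortex alone and -0.333 and -0.368 in the outer stripe alone. Lcn2 was found in 97.7 and 93.8% of ischemic spots, and both transcripts in 86.1 and 78.1%, as shares this high must largely overlap.

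**Figure D4:**
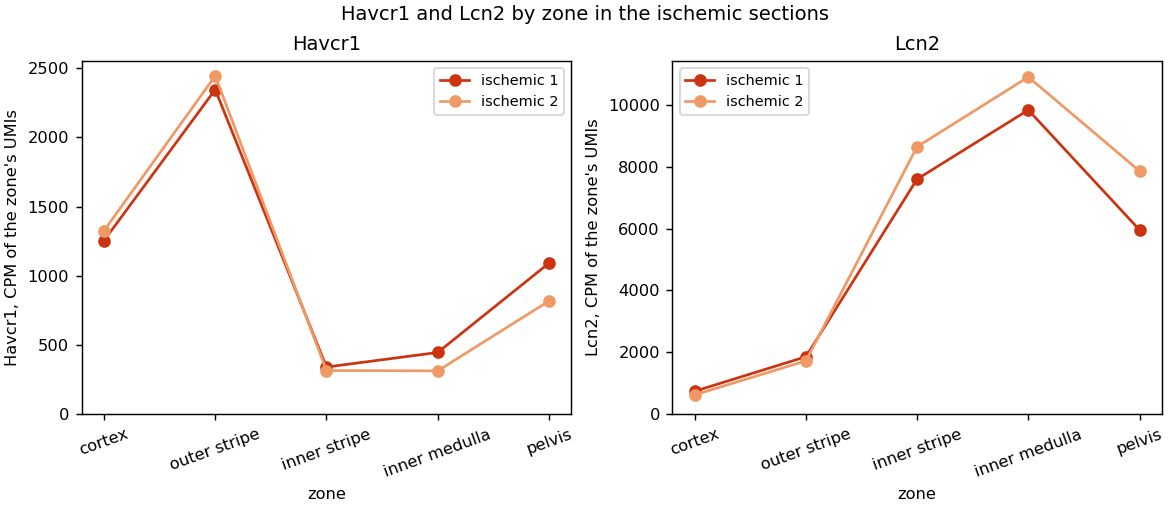
Havcr1 (left) and Lcn2 (right) in the 5 zones of the ischemic sections, as CPM of the zone's UMIs on linear axes from 0, 1 line per section. Havcr1 peaks in the outer stripe at 2346 and 2445 CPM, and Lcn2 in the inner medulla at 9833 and 10900 CPM.

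The gene whose pattern across ischemic spots was most like Havcr1 was Kap, and the family member Timd2 ranked at number 5. Likeness was Pearson's r of log2(CPM + 10) over the 2401 and 2613 spots, for 8354 genes found in at least 10% of spots of both sections, ranked by the lower of the r values. These are descriptions over spots that share a library and its depth, and the median r over all genes was 0.033 and 0.031. Kap, the kidney androgen-regulated protein of the proximal tubule, stood at 0.769 and 0.755. Then came Slc27a2, a very long chain acyl-CoA synthetase (0.627 and 0.623), Plin2, a coat protein of lipid droplets (0.675 and 0.611), Guca2b, which encodes uroguanylin (0.681 and 0.607), and Timd2 (0.666 and 0.598). Glyat, Selenbp1, Spink1, the brush border protease gene Mep1a and Cda completed the 10, with r between 0.548 and 0.643. After removing the mean of each zone, Kap kept r values of 0.529 and 0.563 and the other 9 lay between 0.334 and 0.427. With Spearman's correlation 5 of the 10 stayed among the top 10.

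These neighbours in space did not change alike with ischemia. Kap fell from 5868581 and 2523931 UMIs in the normal sections to 692437 and 542193 in the ischemic sections (log2 fold change -2.67 ± 0.42). Plin2 rose from 3299 and 1829 UMIs to 40562 and 32692 (3.91 ± 0.19). Timd2 rose from 2569 and 1492 UMIs to 8126 and 6435 (1.91 ± 0.14). The adjusted p values were 0.000549, 5.39e-07 and 6.23e-06 (edgeR quasi-likelihood test). Kap lost its call in 2 of 10 alternative settings, with adjusted p values up to 0.188. Of the others, Mep1a fell by 3.05 on the log2 scale, Slc27a2 by 1.85, Glyat by 1.10 and Spink1 by 1.03, each with an adjusted p of at most 0.00111, and Spink1 lost its call in 2 of 10 alternative settings, with adjusted p values up to 0.139. Guca2b, Selenbp1 and Cda did not pass, with log2 fold changes of -0.53, 0.32 and -0.01. They stayed uncalled in 6, 8 and 7 of 10 alternative settings. In all, 2 of the 10 rose, 5 fell and 3 did not pass, beside 31.0% higher and 29.7% lower over all genes.

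The 5 least like genes were those with the lowest value of the higher r. Slc14a2, a urea transporter of the medulla, led them at -0.586 and -0.437. Lcn2 was next, followed by Bcam, a laminin receptor (-0.421 and -0.407), Nupr1, a stress-induced nuclear protein (-0.450 and -0.406), and the neuropeptide gene Npy (-0.417 and -0.403), with Spp1 just outside (-0.565 and -0.403). Within zones the 5 were weaker, between -0.243 and -0.102. This list was less stable than the top 10: 0 of the 5 stayed among the 5 lowest under Spearman's correlation, 1 within zones, 2 with a pseudocount of 100 CPM and 3 with spots pooled with their neighbours.

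**Figure D5:**
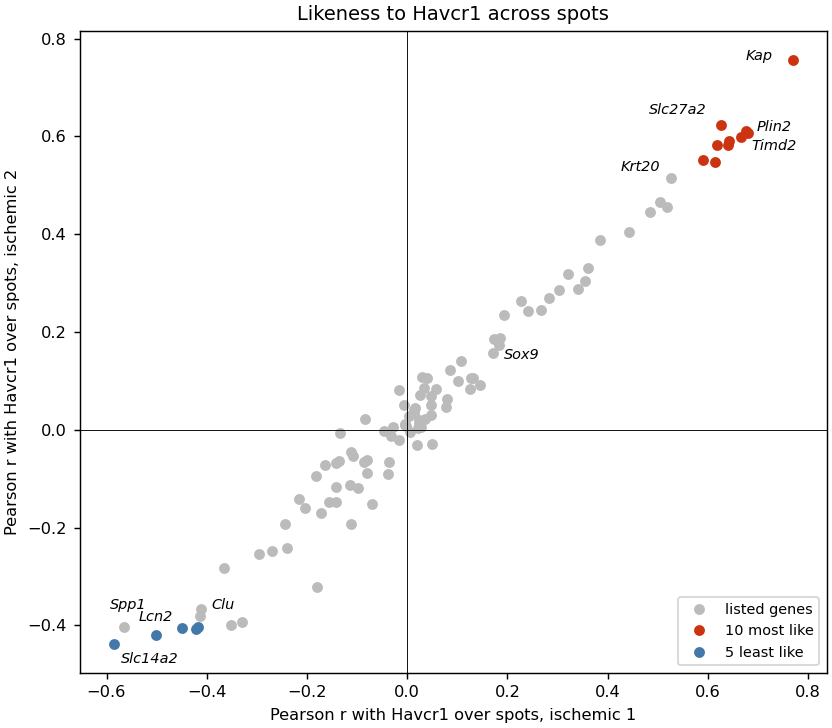
Pearson's r with Havcr1 over spots in ischemic section 1 (x axis) and ischemic section 2 (y axis), 1 point per gene. Red marks the 10 genes most like Havcr1, blue the 5 least like and grey the other listed genes. Kap stands at 0.769 and 0.755, Timd2 at 0.666 and 0.598, and Slc14a2 at -0.586 and -0.437.

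Timd2 was examined further, since it is both the neighbour and the close relative. Normal sections held 16.7 and 39.5 Havcr1 UMIs per 1000 Timd2 UMIs, and ischemic sections 5382 and 5698. In the normal cortex, where Timd2 was highest at 80.7 and 76.9 CPM, 1679 and 935 Timd2 UMIs stood beside 5 and 5 Havcr1 UMIs. That is 2.98 and 5.35 Havcr1 UMIs per 1000 Timd2 UMIs, the lowest ratios among zones with more than 3 Havcr1 UMIs. In the other direction, Timd2 stood at 264 and 252 UMIs per 1000 Havcr1 UMIs in ischemic cortex and at 142 and 136 in the outer stripe, and at 117 to 164 in the other zones. Timd2 held near-equal ischemic levels of 331 and 334 CPM in cortex and 332 and 332 CPM in the outer stripe, whereas Havcr1 was higher in the outer stripe. The number of reads from the shared stretches is likewise unknown. Of the rest of the family, Havcr2 held 15 and 27 UMIs in normal and 28 and 20 UMIs in ischemic sections, with a log2 fold change of 0.19 that did not pass and turned below 0 in 1 of 10 alternative settings, and Timd4 held 2, 3, 0 and 1 UMIs and was too low to test.

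Because the genes face each other and both rose, the 250 bases before an annotated start of each were read from RefSeq (GRCm38.p6). For Havcr1 a start was taken whose window overlaps no annotated exon, with the window at chr11:46750918-46751167 on the plus strand. Of the 3 annotated Havcr1 starts this is the one farthest from Timd2. It lies inside the gene interval given above and downstream of the other annotated starts, at 46740223 and 46750511. The window therefore does not border the stretch between the genes, and which start was used in these sections was not tested. For Timd2 the window was chr11:46707105-46707354 on the minus strand. Both are printed 5′ to 3′ in the direction of transcription, in lower case throughout since capitals would mark a motif match.
Havcr1: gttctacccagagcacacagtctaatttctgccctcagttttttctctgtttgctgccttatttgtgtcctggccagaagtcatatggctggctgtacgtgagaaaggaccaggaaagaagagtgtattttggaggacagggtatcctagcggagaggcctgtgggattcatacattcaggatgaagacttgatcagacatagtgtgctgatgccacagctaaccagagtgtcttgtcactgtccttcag
Timd2: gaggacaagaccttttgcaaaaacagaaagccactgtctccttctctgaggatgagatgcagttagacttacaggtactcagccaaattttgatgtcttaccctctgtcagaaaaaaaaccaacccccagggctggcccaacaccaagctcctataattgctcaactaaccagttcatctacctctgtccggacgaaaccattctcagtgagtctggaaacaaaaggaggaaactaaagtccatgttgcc

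STAT3 and AP-1 are transcription factors of the injury response, and their usual letters were searched on both strands of these windows. The STAT motif TTCNNNGAA was in none of the 3 annotated Havcr1 and 2 annotated Timd2 windows, and was in 7.02% of all 32851 windows of this length. The AP-1 motif TGANTCA was in none of them either, and in 6.75% of all windows. No match says only that these letters are not in these windows.

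Around Havcr1, other genes of dying cell clearance moved in both directions. Of 15 other phosphatidylserine receptors and bridging proteins, 12 could be tested, 7 rose, 3 fell and 2 did not pass (edgeR quasi-likelihood test), beside 31.0% higher and 29.7% lower over all genes. Their median log2 fold change was 0.62, against 0.04 over all genes. Among those that rose, Cd300lf, a myeloid receptor, changed by 2.83 from 1 and 4 UMIs in normal to 16 and 20 UMIs in ischemic sections. It passed the count filter through the ischemic sections alone, so its rise was nearly fixed in advance. Pros1, the bridging protein S, rose by 2.06, and the receptor Axl by 1.31. Lrp1, a large endocytic receptor, rose by 1.04, Scarb1 by 1.01, the bridging protein Mfge8 by 0.69 and Stab1 by 0.56. Stab2, an endothelial scavenger receptor, changed by -2.88, the receptor Mertk by -0.81 and its ligand Gas6 by -0.60. Mertk and Gas6 lost their calls in 1 and 2 of 10 alternative settings. Tyro3 and Cd36 did not pass, with log2 fold changes of 0.05 and -0.14.

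Of 10 genes of the engulfment machinery, 3 rose, 2 fell and 5 did not pass, beside 31.0% higher and 29.7% lower over all genes, so their calls were no more frequent than the background. Their median log2 fold change was 0.21. Dock1, an exchange factor for Rac, rose by 0.79, the GTPase gene Rac1 by 0.61 and the adaptor gene Crk by 0.44. Abca1, a lipid exporter, changed by -0.66 and the lysosomal gene Lamp1 by -0.37, which lost its call in 4 of 10 alternative settings. Rac1 and Abca1 each lost it in 1 and Crk in 2. Elmo1, Gulp1, Map1lc3b, Becn1 and Rubcn did not pass.

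Of 9 genes tied to the shedding of Kim-1 or to its signalling, 6 rose, 1 fell and 2 did not pass, beside the same background of 31.0% and 29.7%, with a median log2 fold change of 0.38. The metalloprotease genes Adam10, Adam17 and Mmp3 rose by 0.38, 0.42 and 2.33. Stat3 rose by 1.5 and Pik3r1, a regulatory subunit of PI3 kinase, by 1.79. Adam10 and Adam17 each lost their calls in 2 of 10 alternative settings. Gna12, a G protein that Kim-1 is known to bind, changed by -0.55, lost in 1. Mapk3 and Nr4a1 did not pass, and stayed uncalled in 8 and 6 of 10 alternative settings. With all sections scaled by total UMIs only, the median over all genes moved from 0.04 to 0.31, so the changes under 0.5 among these genes are small beside the choice of scaling.

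The list named injured proximal tubule rose in 16 of 16 members, beside 31.0% of all genes, with a median log2 fold change of 2.65. The list was chosen with earlier results of these data known, so this count is a description and not independent evidence. Its name is only a label. In both ischemic sections Krt20, Krt8, Anxa2 and Ccl2 were highest in the outer stripe and Plin2 in cortex. Lcn2, Vcam1, Vim and Sox4 were highest in inner medulla, Spp1 and Cd24a in inner stripe and Krt18 in pelvis. The zone of the other members differed between the sections. Krt20, a keratin, went from 17 and 17 UMIs to 6969 and 6310 UMIs, a log2 fold change of 8.64 ± 0.18 (adjusted p = 2.11e-08). Sox9, a transcription factor of tubular repair, went from 15 and 6 to 432 and 435 UMIs (5.41 ± 0.25). Vcam1, an adhesion molecule, rose least, by 0.51, and lost its call in 1 of 10 alternative settings.

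Over the spots of the ischemic sections the members of that list spread widely around Havcr1. Krt20 stood close to it, at r = 0.527 and 0.515, and was highest in the outer stripe, at 514 and 564 CPM against 73.2 and 75.8 CPM in cortex. Plin2 was among the 10 most like genes. Krt8 and Sox9 lay between 0.157 and 0.187, and Anxa2, Vcam1 and Vim between -0.085 and 0.045. Clu, Cd24a and Spp1 lay between -0.565 and -0.366. Spp1, which encodes osteopontin, was highest in the inner stripe, at 70327 and 74377 CPM, where Havcr1 was low. The sum of the list correlated with Havcr1 at -0.585 and -0.424, a sum in which abundant members such as Spp1 weigh most.

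Markers of other cell types were compared in the same way. Summed markers of the whole proximal tubule correlated with Havcr1 at 0.554 and 0.538, of the convoluted part at 0.380 and 0.364 and of the straight part at 0.251 and 0.200. The thick ascending limb list stood at -0.406 and -0.300 and the collecting duct list at -0.347 and -0.403. Podocyte genes stood at -0.025 and -0.019. T cell markers, which matter because TIM family genes are also immune genes, held 128 and 118 UMIs in the ischemic sections over 8 genes. They fell in 6 of 7 genes tested, beside 29.7% of all genes, and correlated at -0.092 and -0.078. Cd3d, Cd3e, Cd3g, Cd8a and Cd8b1 held only 1 to 10 UMIs in an ischemic section. These genes passed the count filter through the normal sections, so the count of falls is only a description. B cell markers held 34 and 27 UMIs, with 3 and 2 of 5 genes detected. Neutrophil markers rose from 63 and 60 UMIs to 5495 and 4612, with 5 of 5 genes tested higher, beside 31.0% of all genes. The whole list held 1.41 and 2.17 CPM in the normal sections. Genes so low there can pass the count filter through the ischemic sections alone, so the count of rises is only a description. These markers correlated at 0.184 and 0.206, or 0.149 and 0.093 within zones. Their part in the Havcr1 pattern was not tested.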

How the data were processed

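The authors aligned the Visium reads with Space Ranger 1.3.0, named in the file header, to mm10, the build in the submitters' processing notes, and the deposited values are UMI counts of each gene in each spot, not normalized. Spots under tissue were taken from the deposited positions, all values were computed from these counts, and no column was left out. Havcr1, the lists and the tests were chosen with earlier results of these data known. The genes named were Havcr1, Lcn2, the 10 genes most and 5 least like Havcr1 and the listed genes by role, and Gm4926, Cryab, Akr1b3 and Aqp2 were named after their values were seen.

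Counts were summed over a section, or over those spots of a section in 1 zone if there were 20 or more, and tested with edgeR 4.0.16 (TMM, filterByExpr, quasi-likelihood, Benjamini-Hochberg, threshold 0.05) in R 4.3.3; DESeq2 1.42.0 was an alternative. Fits between zones used all 4 sections with the section as a block. Standard errors are the log2 fold change divided by the root of F. A zone was the highest of standardised mean log2(CPM + 1) scores of a spot with up to 6 neighbours; pelvis needed at least 10 counts of its list and the top 5% of spots. Shares have 95% Clopper-Pearson intervals, the limit set for 0 counts was 3 counts, and neither covers more than counting error. Coordinates come from GENCODE, with 32158 of 32285 identifiers matched. Procedures were tested on simulated data. The values of 1 listed gene are not reported here.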

Additional observations from a re-analysis of the deposited data

Results flagged for a closer look

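The change with ischemia differed between zones. The log2 excess of the outer stripe over cortex was lower in ischemic than in normal sections by -2.09 ± 0.50 (SE; edgeR quasi-likelihood test of the interaction, adjusted p = 0.00347), from 2.96 in normal to 0.87 in ischemic sections. The normal cortex held 5 UMIs in each of its 2 sections, beside 23 and 35 UMIs in the normal outer stripe, and without normal section 2 the adjusted p was 0.121.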

How the results depend on the processing

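The rise of Havcr1 kept its direction and its call in all 10 alternatives over whole sections, with log2 fold changes from 9.24 to 10.07, and in all alternatives in each zone. The number of genes called ranged from 6493 to 10877, against 9279, with 7633 under DESeq2 and 10089 with the replicate block. Section numbers are shared by the groups but not known to pair mice (correlation of the deviations 0.16, 2 pairs), and with the replicate block Havcr1 gave 9.65 over whole sections. Without the section as a block, cortex against outer stripe was -0.87 (adjusted p = 0.0100) and no call between zones changed. With zones from the spot alone, inner stripe exceeded pelvis by 0.26 and inner medulla exceeded pelvis by 0.35. Without Cryab in the inner medulla list, an alternative chosen after seeing the data, inner stripe exceeded inner medulla by 0.66 (adjusted p = 0.149). With 3 zones lacking proximal tubule markers and pooled over more neighbours, cortex exceeded the outer medulla by 0.65 and the interaction was -3.34. Scaled by total UMIs only, cortex exceeded pelvis by 0.45. With ischemic sections left out in turn, inner stripe against inner medulla ranged from -0.39 to 0.030 and cortex against pelvis from 0.53 to 1.08. With any section left out, the interaction ranged from -2.34 to -1.85. Thinning to 1000 or 5000 UMIs, in place of 2000, gave mean shares of 0.138 and 0.680% in normal sections (0.273% at 2000) and 53.2 and 81.2% in ischemic sections (67.1%), by construction. Of the 10 most like genes, 5 stayed under Spearman's correlation and 6 with a pseudocount of 100 CPM. The causes of the other changes were not tested. The 102 normal UMIs limit the comparisons of conditions by zone.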
